A study of Homo sapiens with 4 samples.

Results

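The genes described here are the sensors, transcription factors and folding factors through which a cell answers unfolded protein in the endoplasmic reticulum (ER): HSPA5, HSP90B1, CALR, PDIA4, DNAJB9, DNAJC3, HERPUD1, XBP1, ERN1 and ATF6. They were chosen by name and found through their Ensembl identifiers, giving 10 of the 20348 genes in the count table. The choice was made with earlier results of these data known, so shares among the 10 genes are descriptions. Poly-A RNA was sequenced from K562, a line from a chronic myeloid leukemia in blast crisis, and from THP-1, a line from an acute monocytic leukemia. Each line received either DMSO, the vehicle, or 100 nM periplocin, a cardiac glycoside of the Periploca root bark, over 72 h, and the labels give no other treatment or genetic change. The labels call the vehicle samples blank controls, while the library names and the study's methods give DMSO. Each condition had 1 library, so no value below has a replicate check, and each line stands for 1 cell culture.

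The ER holds the chaperones and enzymes that fold secreted and membrane proteins. When unfolded protein builds up, the sensors IRE1 (gene ERN1), ATF6 and PERK (gene EIF2AK3) start a program known as the unfolded protein response, which raises the transcription of chaperones and of the machinery that carries misfolded protein back to the cytosol. IRE1 splices the mRNA of XBP1 into a form that encodes an active transcription factor, and ATF6 is cut in the Golgi to release another. Blood cells that make much secreted or granule protein rely on these factors, and counts per gene show neither the splicing of XBP1 nor the cleavage of ATF6.

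Library totals lay between 16381172 and 20622719 counts. Levels are given as CPM, the counts scaled to a common library total, and each ratio of periplocin to DMSO carries a 95% exact binomial interval that covers counting error only. Mitochondrially encoded genes took 5.62% of K562 counts with DMSO and 2.07% with periplocin, and 5.24% and 3.93% of THP-1 counts. The labelled lines were checked against their markers. In K562, 8 of 8 markers, such as GATA1 and HBG1, had 87.2 CPM or more, and their summed level was 2655 CPM in DMSO and 10400 CPM in periplocin, while in THP-1 it was 250 and 242 CPM, nearly all from TFRC. The 9 THP-1 markers summed to 2039 and 1615 CPM in THP-1 and to 99.0 and 90.8 CPM in K562, although MPO was near 0 in THP-1 too, at 2.08 and 0.79 CPM. The higher K562 markers and the lower mitochondrial share in treated K562 accompany every K562 ratio below, and their part in those ratios was not tested. In bulk RNA, fewer cells of a type and less RNA per cell cannot be told apart.

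The promoters of several of these genes carry the ER stress response element (ERSE), a known binding site for NF-Y with ATF6 or spliced XBP1, spelled CCAAT and CCACG with 9 bases between them. RefSeq promoter windows on GRCh38.p14, from 250 bases before to 50 after a transcription start, were found for 10 of 10 genes, as 12 windows because PDIA4 and XBP1 have a second start. Searched on both strands, the exact element was in 27 of 35116 promoters (0.0769%) and in 4 of the 10 genes, HSPA5, HSP90B1, CALR and XBP1. The related ERSE-II, spelled ATTGG and CCACG with 1 base between them, was in 19 promoters (0.0541%) and, among the 10 genes, in HERPUD1. The letters TGACGTGG, a core bound by spliced XBP1, were in 0.729% of promoters, and TGACGTGA, a variant of it, in 0.45%, and neither was in the windows of the 10 genes. With at most 1 mismatch allowed in the 10 fixed letters of ERSE, a search added after the data were seen, the element was in 1.55% of promoters and in 6 of the 10 genes, DNAJC3 and HERPUD1 being added. A match is a description of the sequence and not a measured binding site.

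The exact elements are shown with 5 bases on either side, each on the strand on which CCAAT (or ATTGG) comes first, and capitals mark the element. They are shown because the genes that hold them went in different directions in the measurements that follow.
HSPA5 (chr9:125241386-125241414, minus strand): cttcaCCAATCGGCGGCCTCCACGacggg
HSP90B1, distal (chr12:103930211-103930239, plus strand): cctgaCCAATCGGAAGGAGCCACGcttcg
HSP90B1, proximal (chr12:103930316-103930344, minus strand): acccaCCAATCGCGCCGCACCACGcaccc
CALR (chr19:12938379-12938407, minus strand): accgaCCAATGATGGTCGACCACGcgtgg
XBP1 (chr22:28800598-28800626, minus strand): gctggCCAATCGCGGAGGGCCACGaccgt
HERPUD1, ERSE-II (chr16:56932020-56932040, plus strand): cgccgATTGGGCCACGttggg

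The HSPA5 promoter is shown whole up to its start, because HSPA5 is the standard reporter of this response and was the most abundant of the 10 genes that were 2-fold lower. Its 250 bases before the RefSeq start are given 5′ to 3′ in the direction of the gene, with the exact ERSE in capitals.
HSPA5 promoter (chr9:125241344-125241593, minus strand): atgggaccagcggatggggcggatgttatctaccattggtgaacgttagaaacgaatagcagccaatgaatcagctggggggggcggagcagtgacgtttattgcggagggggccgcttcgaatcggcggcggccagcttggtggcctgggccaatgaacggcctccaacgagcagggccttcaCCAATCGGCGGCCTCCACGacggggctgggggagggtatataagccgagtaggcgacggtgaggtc

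The element of HSPA5 lay 66 to 48 bases before the start and that of XBP1 52 to 34 bases before it, both reading in the direction of the gene. HSP90B1 had exact elements at 194 to 176 and at 89 to 71 bases before the start, in opposite orientations, and a pair with 1 mismatch besides. The element of CALR lay farther off, at 225 to 207 bases, and read against the gene. None of the matches in the 10 genes overlapped another.

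**Figure D1:**
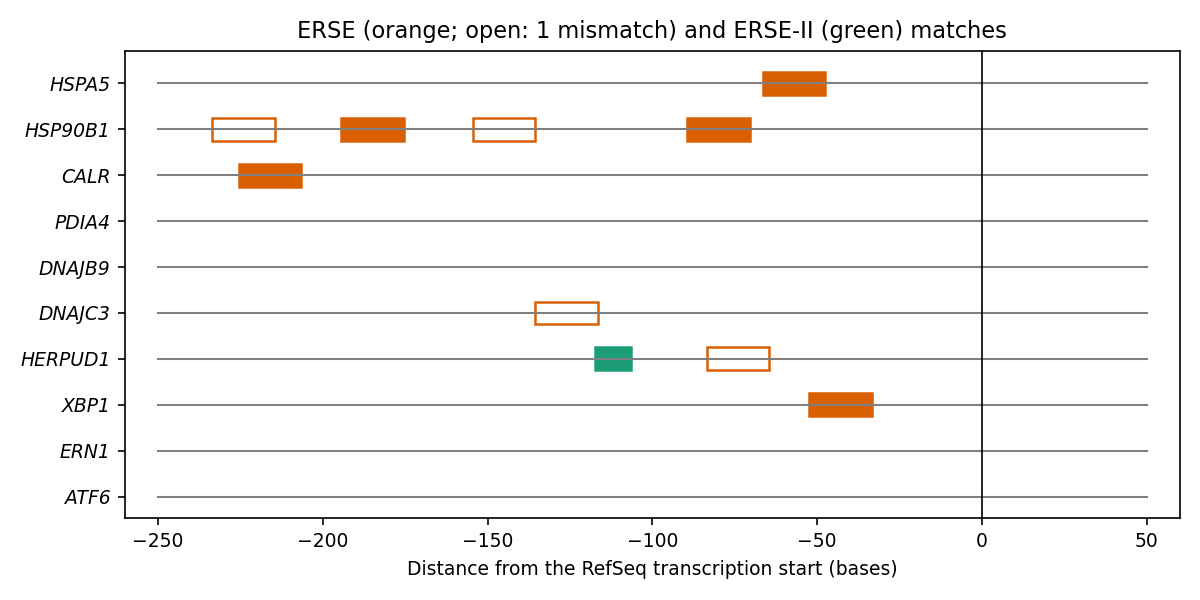
Matches to ERSE (orange) and ERSE-II (green) in the RefSeq promoter windows of the 10 genes, by distance in bases from the transcription start; filled boxes are exact and open boxes have 1 mismatch. HSPA5, HSP90B1, CALR and XBP1 hold exact ERSE matches, HERPUD1 holds ERSE-II, and PDIA4, DNAJB9, ERN1 and ATF6 hold none in this window.

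In DMSO, 8 of the 10 genes stood lower in THP-1 than in K562 by any amount. No share over all genes was computed for that count, and the 2-fold counts with their shares are given further on. Divided by transcript length, HSP90B1 led in K562 DMSO at 317 CPM per kb, followed by HSPA5 at 290, CALR at 234 and XBP1 at 163 CPM per kb. PDIA4 and HERPUD1 followed at 65.0 and 57.6 CPM per kb and ATF6 at 34.0, while DNAJB9, DNAJC3 and ERN1 closed the order at 14.7, 13.1 and 12.8 CPM per kb. Neighbours in that order differed beyond counting error except DNAJC3 and ERN1, whose ratio was 1.02 (0.95 to 1.104). The length was that of a single transcript per gene, the one with the longest coding sequence. The order depends on that choice, which the intervals do not cover. By CPM alone, HSPA5 stood above HSP90B1 in K562 DMSO, at 1132 and 905 CPM. In THP-1 DMSO, CALR and HSP90B1 led at 245 and 244 CPM per kb and did not differ beyond counting error (ratio 1.01, 0.980 to 1.03), XBP1 had 114 CPM per kb and HSPA5 only 88.6. The lowest per length was again ERN1, at 2.51 CPM per kb in THP-1 DMSO.

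Set side by side by library total, 5 of the 10 genes were at least 2-fold lower in THP-1 DMSO than in K562 DMSO, against 23.5% of the 12845 genes compared. 0 of the 10 were at least 2-fold higher, against 21.0% of those genes. ERN1 was 5.08-fold lower, DNAJB9 3.79-fold, HSPA5 3.27-fold, HERPUD1 2.93-fold and ATF6 2.17-fold. PDIA4, XBP1 and HSP90B1 were lower by log2 ratios of -0.78, -0.52 and -0.38, and CALR and DNAJC3 were within 0.07 of equality. ATF6 was no longer 2-fold lower with TMM factors or DESeq2's size factors, which moved every gene by 0.12 and 0.13 on the log2 scale and changed the sign of none of the 10.

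**Figure D2:**
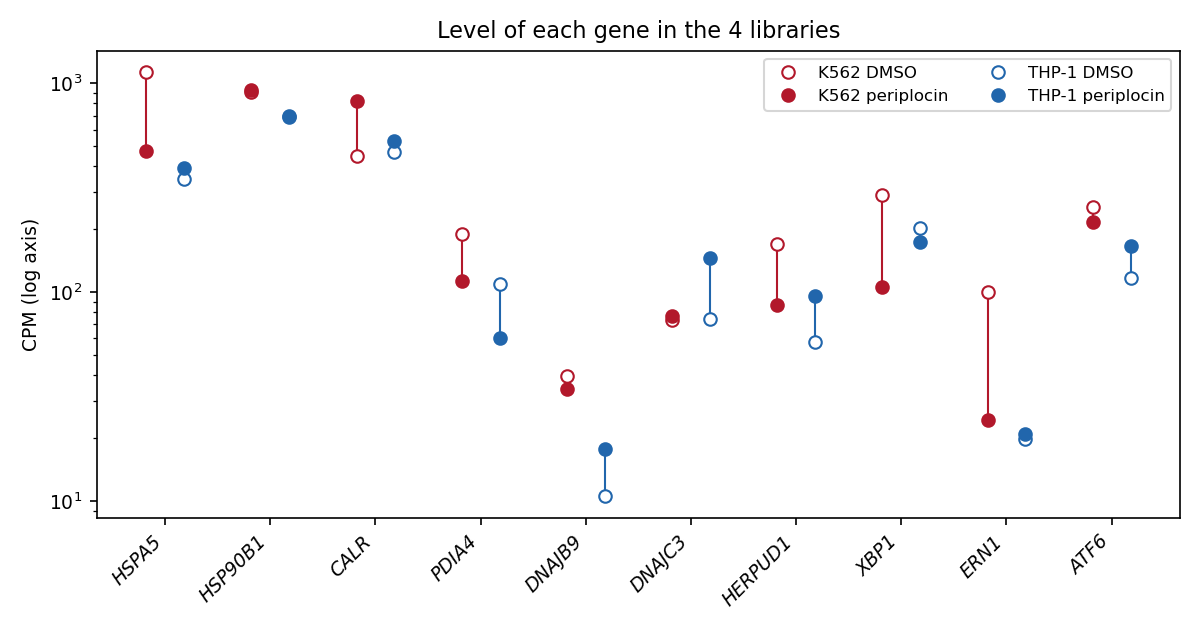
Level of each of the 10 genes in the 4 libraries in CPM on a log axis, with open circles for DMSO, filled circles for periplocin, red for K562 and blue for THP-1; each line joins the libraries of 1 cell line. In K562 HSPA5, XBP1 and ERN1 went from 1132 to 474, 292 to 106 and 101 to 24.3 CPM, and CALR from 446 to 821 CPM.

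Periplocin went with lower levels of the sensor ERN1, its substrate XBP1 and the chaperone HSPA5 in K562, each by more than 2-fold, and with no such change of any of the 10 genes in THP-1. In K562, 0 of the 10 genes were at least 2-fold higher, against 8.94% of the 11863 genes averaging 1 CPM or more over the pair of libraries, and 3 were at least 2-fold lower, against 11.4%. All 10 passed that minimum in both lines, their lowest means being 37.0 CPM in K562 and 14.2 CPM in THP-1. In THP-1, 0 were 2-fold higher or lower, against 7.91% and 10.8% of 12341 genes. DNAJC3 came nearest there, at 1.94-fold higher, with an interval of 1.82 to 2.07 that reached past 2-fold. The median log2 ratio of the 10 genes was -0.49 in K562 and 0.18 in THP-1, while that of all genes was 0.00 and -0.04. Intervals that excluded equality were found for 9 of the 10 genes in K562, 2 higher and 7 lower, and for 8 in THP-1, 6 higher and 2 lower, the higher ones in K562 being CALR and HSP90B1, of which the latter changed sign without mitochondrially encoded genes in the totals. At this depth 77.5% and 76.9% of all genes had such intervals, so that count by itself is near the background. At 1.5-fold, 6 of the 10 genes were higher or lower in K562 and 4 in THP-1, against 41.1% and 38.4% of all genes, which in THP-1 is near the background too.

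ERN1 encodes IRE1, the kinase and endoribonuclease of the ER membrane that is the most conserved sensor of the response. In K562 it had 101 CPM with DMSO and 24.3 CPM with periplocin, and in THP-1 19.8 CPM and 20.9 CPM. Only the untreated K562 library was high, and the treated K562 library came close to both THP-1 libraries. The log2 ratio was -2.05 (-2.21 to -1.89) in K562, which is 4.13-fold lower, and 0.08 (-0.12 to 0.29) in THP-1, where 408 and 371 counts did not differ beyond counting error. ERN1 had the largest decrease of the 10 genes.

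XBP1 encodes the transcription factor whose mRNA IRE1 splices. In K562 it was at 292 CPM with DMSO and 106 CPM with periplocin, and in THP-1 at 204 CPM and 174 CPM. The treated K562 library was the lowest of the 4, below both THP-1 libraries. XBP1 was 2.77-fold lower in K562, with a log2 ratio of -1.47 (-1.55 to -1.39), and lower by -0.23 (-0.30 to -0.16) in THP-1. Gene counts sum the spliced and the unspliced mRNA, so these values are of XBP1 RNA in all forms.

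ATF6 encodes the sensor that is carried to the Golgi and cut there. Its level in K562 was 254 CPM with DMSO and 218 CPM with periplocin, and in THP-1 117 CPM and 167 CPM. The THP-1 libraries were both below the K562 ones, and the gap was narrower between the treated libraries than between the untreated ones. The log2 ratio was -0.23 (-0.29 to -0.16) in K562 and 0.51 (0.43 to 0.59) in THP-1. Measured per length within a library, ERN1 had 0.376 of the level of ATF6 in K562 DMSO and 0.106 in K562 periplocin, against 0.161 and 0.119 in THP-1. A ratio of that kind shows that the sensor genes did not change alike in K562, whatever the scaling of the library.

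HSPA5 encodes BiP, the Hsp70 of the ER lumen that binds unfolded protein and holds the sensors inactive. In K562 it had 1132 CPM with DMSO and 474 CPM with periplocin, and in THP-1 346 CPM and 392 CPM. The untreated K562 library stood above the other 3, which lay between 346 and 474 CPM. HSPA5 was 2.39-fold lower in K562, with a log2 ratio of -1.26 (-1.30 to -1.22), and 1.13-fold higher in THP-1, with a log2 ratio of 0.18 (0.13 to 0.23). Ranked by CPM per kb within its library, it lay above 99.2% of genes in K562 DMSO and above 97.2% in K562 periplocin, so it was an abundant mRNA in both.

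HSP90B1 encodes GRP94, the Hsp90 of the ER. It was at 905 CPM and 928 CPM in K562 in DMSO and periplocin, and at 697 CPM and 688 CPM in THP-1. Levels hardly moved in either line. The log2 ratios were 0.04 (0.004 to 0.07) in K562 and -0.02 (-0.05 to 0.02) in THP-1, and the sign turned to -0.02 in K562 when mitochondrially encoded genes were left out of the totals and to 0.02 in THP-1 with DESeq2's size factors. Part of HSP90B1 overlaps exons of other genes, among them UQCC6, which had at most 25.7 CPM in any library.

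CALR encodes calreticulin, a lectin chaperone that also binds calcium in the ER. It was at 446 CPM in K562 DMSO and 821 CPM in K562 periplocin, and at 467 CPM and 530 CPM in THP-1. The untreated libraries were close to each other, and the treated K562 library stood highest. CALR was 1.84-fold higher in K562, with a log2 ratio of 0.88 (0.84 to 0.92), and 1.14-fold higher in THP-1, at 0.18 (0.14 to 0.22). HSPA5 had 1.24 times the level of CALR per length in K562 DMSO and 0.281 times in K562 periplocin. In THP-1 it had 0.361 times and 0.36 times the level of CALR, so within the library the balance of these chaperones moved in K562 and hardly in THP-1. CALR shares exonic bases with an antisense gene that was not analysed here.

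PDIA4 encodes ERp72, a protein disulfide isomerase. Its level was 189 CPM in K562 DMSO and 112 CPM in K562 periplocin, and 110 CPM and 60.04 CPM in THP-1. In each line the treated library was the lower. The log2 ratio was -0.75 (-0.83 to -0.66) in K562 and -0.87 (-0.98 to -0.77) in THP-1, or 1.68-fold and 1.83-fold lower. PDIA4 and XBP1 were the genes of the 10 that were lower in both lines beyond counting error, XBP1 mostly in K562 and PDIA4 by similar amounts in each.

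DNAJB9 encodes ERdj4, a co-chaperone of BiP that represses IRE1, and DNAJC3 encodes p58IPK, a co-chaperone known as an inhibitor of PERK. DNAJB9 had 39.9 CPM with DMSO and 34.2 CPM with periplocin in K562, and 10.5 CPM and 17.8 CPM in THP-1. DNAJC3 had 73.1 and 76.8 CPM in K562, and 74.7 and 145 CPM in THP-1. Both co-chaperones were therefore higher in the treated than in the untreated THP-1 library. The log2 ratios in THP-1 were 0.76 (0.51 to 1.02) for DNAJB9, from 217 and 316 counts, and 0.96 (0.86 to 1.05) for DNAJC3. In K562 they were -0.22 (-0.39 to -0.06) and 0.07 (-0.04 to 0.19). DNAJB9 shares exonic bases with THAP5 and PNPLA8 on the other strand, which had log2 ratios of 0.64 and 0.61 in THP-1, and a library without strand cannot separate their reads there.

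HERPUD1 encodes a membrane protein of the complex that removes misfolded proteins from the ER for degradation. In K562 it had 170 CPM with DMSO and 87.0 CPM with periplocin, and in THP-1 57.9 CPM and 96.3 CPM. With periplocin the lines met at similar levels from opposite sides. HERPUD1 was 1.95-fold lower in K562, with a log2 ratio of -0.96 (-1.06 to -0.87), and 1.66-fold higher in THP-1, at 0.73 (0.63 to 0.84). Without mitochondrially encoded genes in the totals it was at -1.02 in K562, just past 2-fold.

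**Figure D3:**
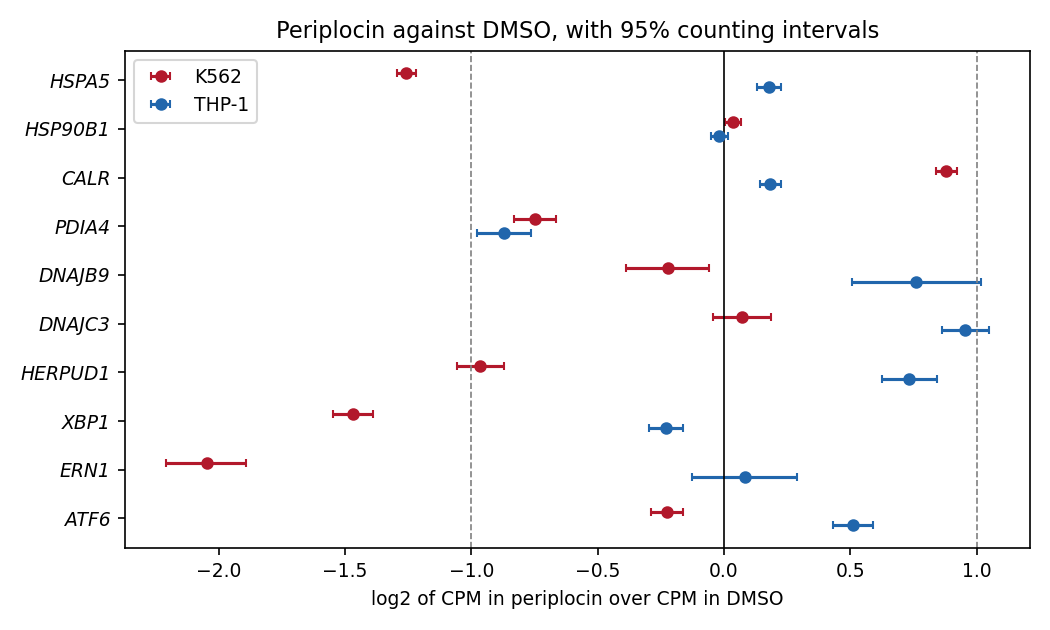
Log2 ratio of CPM in periplocin to CPM in DMSO for the 10 genes in K562 (red) and THP-1 (blue), 1 library per condition; bars are 95% exact binomial intervals of the counts, and dashed lines mark a 2-fold difference. HSPA5, XBP1 and ERN1 lie beyond the 2-fold line in K562 and no gene does in THP-1.

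The THP-1 log2 ratio minus the K562 one excluded 0 by counting error for 9 of the 10 genes, against 71.1% of the 10780 genes measured in both lines, and 7 of the 10 ratios were higher in THP-1, against 46.4%. The largest differences were those of ERN1 at 2.13 (1.87 to 2.39), HERPUD1 at 1.70 (1.56 to 1.84), HSPA5 at 1.44 (1.375 to 1.497) and XBP1 at 1.24 (1.14 to 1.34). CALR went the other way, at -0.70 (-0.76 to -0.64). PDIA4 differed by -0.12 (-0.26 to 0.01), an interval that includes 0. The difference of HSP90B1, -0.05 (-0.10 to -0.01), also included 0 under the other scalings, and its sign within each line depended on the scaling, as given above.

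HSPA5, DNAJB9, HERPUD1 and ATF6 were lower in K562 and higher in THP-1, each beyond counting error. They make 4 of the 10 genes, against 9.85% of the 10780 genes measured in both lines. PDIA4 and XBP1 were lower in both lines and CALR was higher in both. With 1 library per condition these counts describe the 4 libraries and not a replicated response. Summed over the 10 genes, the level was 3602 CPM in K562 DMSO and 2881 CPM in K562 periplocin, and 2103 CPM and 2290 CPM in THP-1. HSPA5, HSP90B1 and CALR made up 2483 CPM of the first of these sums and 1610 CPM of the last.

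**Figure D4:**
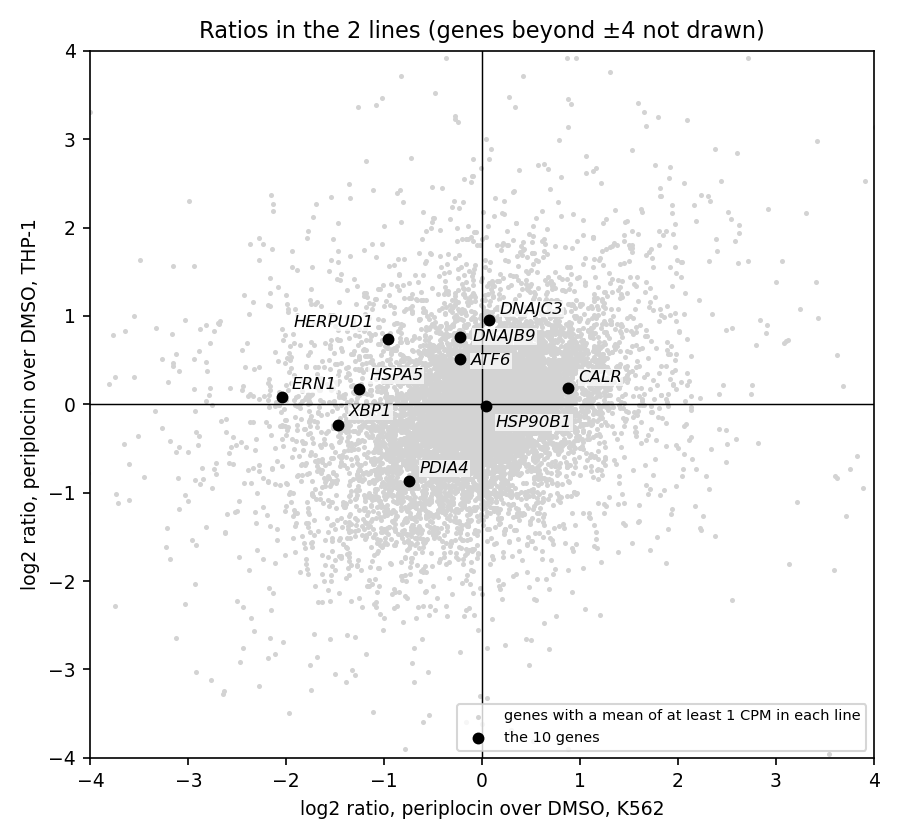
Log2 ratio of periplocin to DMSO in K562 (horizontal axis) and THP-1 (vertical axis) for all genes averaging 1 CPM or more in both lines (grey) and the 10 genes (black, named). HSPA5, DNAJB9, HERPUD1 and ATF6 lie in the upper left, lower in K562 and higher in THP-1, as does ERN1, whose THP-1 ratio of 0.08 is within counting error, and PDIA4 and XBP1 lie in the lower left. Genes beyond 4 on either axis are not drawn.

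Taking both lines as the replicates of the treatment, edgeR's quasi-likelihood fit with cell line and treatment as terms gave 0 of 13584 genes (0.0%) with an adjusted p under 0.05, and 1538 genes (11.3%) with an unadjusted p under 0.05. PDIA4 was 1 of those 1538 and the only one of the 10 genes. The adjusted p of the 10 genes in that fit ran from 0.386 for PDIA4 to 0.986 for HSP90B1. DESeq2 with the same terms called 126 genes, none of the 10 among them, and had 1171 genes at an unadjusted p under 0.05. With a single residual degree of freedom, the error of this fit is the disagreement of the lines.

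The rest of the pathway was followed through 8 lists with 166 further genes. In K562, 4 of the 161 averaging 1 CPM or more were at least 2-fold higher (2.48%) and 17 at least 2-fold lower (10.6%), with a median log2 ratio of -0.11. In THP-1, 9 of 160 were higher (5.62%) and 7 lower (4.38%), with a median of 0.12. The shares that were 2-fold higher or lower were thus below those of all genes given above in both lines, the share of lower genes in K562 coming nearest to it. Counts in the single lists below stand beside the same shares of all genes and rest on few genes each. Those shares were 8.94% higher and 11.4% lower in K562, and 7.91% and 10.8% in THP-1.

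Among the further sensors and ER-bound transcription factors, 1 of 12 was 2-fold higher and 2 lower in K562, and 2 of 11 were higher and 1 lower in THP-1. MBTPS2, the site-2 protease that completes the cleavage of ATF6, was at 71.7 CPM in K562 DMSO and 33.1 CPM in K562 periplocin, a log2 ratio of -1.12 (-1.26 to -0.97). CREB3L4, a relative of ATF6, was lower in both lines, by -1.38 in K562 and -1.63 in THP-1, and CREB3L2, another relative, was 2.07-fold higher in THP-1. EIF2AK3, the gene of PERK, had 37.4 and 23.3 CPM in K562 and 17.8 and 20.4 CPM in THP-1, with log2 ratios of -0.68 (-0.87 to -0.49) and 0.19 (-0.02 to 0.41). The remaining calls, chosen after their values were seen, were low genes: CREB3L3 in K562, with 1 and 96 counts, and CREB3L1 in THP-1, with 10 and 37 counts.

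The further chaperones had a median log2 ratio of -0.17 in K562 and -0.10 in THP-1, with ratios from -2.50 (FKBP10) to 0.92 (CRELD1) in K562 and from -0.78 (FKBP7) to 1.19 (FKBP11) in THP-1, the lowest and highest being named for that after their values were seen. Of 21 measured in K562 none was 2-fold higher and 2 were lower (9.52%), FKBP9, a prolyl isomerase, at 63.2 and 25.7 CPM, and FKBP10, at 28 and 5 counts, named after its value was seen. Of 20 in THP-1, 1 was higher, FKBP11, at 24 and 47 counts and likewise named after its value was seen, and 0 were lower. Of the folding enzymes, 0 of 24 were higher and 3 lower in K562, and 2 of 25 were higher and 3 lower in THP-1. TXNDC5, a disulfide isomerase, was lower in both lines, from 320 to 156 CPM in K562 and from 55.7 to 24.8 CPM in THP-1. PDIA5, a relative of PDIA4, was 5.85-fold lower in THP-1, from 15.5 to 2.65 CPM, and had a log2 ratio of -0.04 (-0.26 to 0.17) in K562. ERO1B, an oxidase that recharges the disulfide isomerases, was 2.44-fold higher in THP-1. The low genes GPX8, with 53 and 11 counts in K562, and ERP27, with 31 and 78 counts in THP-1, were also among these calls and were named after their values were seen. The other calls were the membrane disulfide enzyme TMX4, from 106 to 42.9 CPM in K562, and the peroxidase GPX7, from 27.4 to 10.8 CPM in THP-1.

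In ER-associated degradation, the process HERPUD1 serves, 0 of 29 genes were 2-fold higher and 2 lower in K562, and 0 of 30 were higher and 1 lower in THP-1. SEL1L, the scaffold of the HRD1 ubiquitin ligase, went from 283 to 74.5 CPM in K562, a log2 ratio of -1.92 (-2.02 to -1.83), and from 152 to 190 CPM in THP-1, at 0.32 (0.25 to 0.39). EDEM1, a mannosidase-like factor that hands over misfolded glycoproteins, had 207 and 87.7 CPM in K562. The call in THP-1 was DERL3, with 38 and 8 counts, named after its value was seen. In translocation and signal peptide removal, 1 of 25 genes was higher and 2 lower in K562 and 0 of 25 either way in THP-1. In K562, SEC62, a translocon partner, was 2.02-fold higher, SEC11C, a catalytic subunit of signal peptidase, was 2.47-fold lower, and SRPRB, a subunit of the signal recognition particle receptor, was 2.39-fold lower. They went the same way by less than 2-fold in THP-1, with log2 ratios of 0.41, -0.51 and -0.68. In N-glycan transfer 1 of 29 was higher (DPM3) and 1 lower (OSTC) in K562, and 0 of 28 were higher and 2 lower (ALG6 and DPM2) in THP-1. DPM3 and OSTC had log2 ratios of 0.34 and -0.47 in THP-1, and ALG6 and DPM2 of -0.615 and -0.03 in K562.

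Genes of the PERK arm and of stress-induced death had a median log2 ratio of -0.61 in K562 and 0.50 in THP-1. In K562, 1 of 12 was at least 2-fold higher (8.33%) and 3 lower (25.0%), against 8.94% and 11.4% of all genes. In THP-1, 3 of 12 were higher (25.0%) and 0 lower, against 7.91% and 10.8% of all genes. With 12 genes these shares rest on few calls. TRIB3, a pseudokinase induced by this arm, went from 397 to 88.5 CPM in K562, and CHAC1, a glutathione-degrading enzyme, from 56.9 to 18.3 CPM. In THP-1, TRIB3 went from 67.1 to 77.5 CPM and CHAC1 from 14.6 to 20.5 CPM. TNFRSF10B, the gene of death receptor DR5, went from 89.3 to 22.5 CPM in K562 and from 42.3 to 89.6 CPM in THP-1. PPP1R15A, PPP1R15B and BCL2L11 were higher in both lines. PPP1R15A, encoding the phosphatase subunit GADD34, went from 282 to 408 CPM in K562, a log2 ratio of 0.53 (0.48 to 0.59), and from 29.9 to 97.6 CPM in THP-1, at 1.71 (1.57 to 1.84). PPP1R15B, its constitutive relative, was at 0.60 and 1.02, and BCL2L11, encoding the death factor BIM, was 2.41-fold higher in K562 and 1.43-fold higher in THP-1. ATF4, the main transcription factor of the arm, had log2 ratios of 0.25 (0.20 to 0.29) in K562 and -0.08 (-0.12 to -0.04) in THP-1. Its target DDIT3, the gene of CHOP, was at -0.88 (-1.01 to -0.76) and 0.92 (0.69 to 1.16), lower in K562 and higher in THP-1.

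Of the genes of the ER calcium store, 0 of 13 were 2-fold higher and 2 lower in K562, and 1 was higher and 0 lower in THP-1. Their median log2 ratio was -0.02 in K562 and 0.33 in THP-1. ATP2A3, the SERCA3 calcium pump, went from 878 to 87.0 CPM in K562, which is 10.1-fold lower, and ITPR1, a calcium release channel, from 113 to 40.0 CPM. In THP-1, ATP2A3 was at 65.8 and 62.5 CPM and the channel ITPR2 was 2.29-fold higher. ATP2A2, the SERCA2 pump, named after its value was seen, had log2 ratios of 0.54 in K562 and 0.64 in THP-1. In this list CALR, one of the 10 genes, had a log2 ratio in K562 close to that of STIM2, a sensor of ER calcium named after its value was seen, at 0.88 and 0.89. In THP-1 CALR and STIM2 were at 0.18 and 0.58, so the likeness was seen in K562 only.

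**Figure D5:**
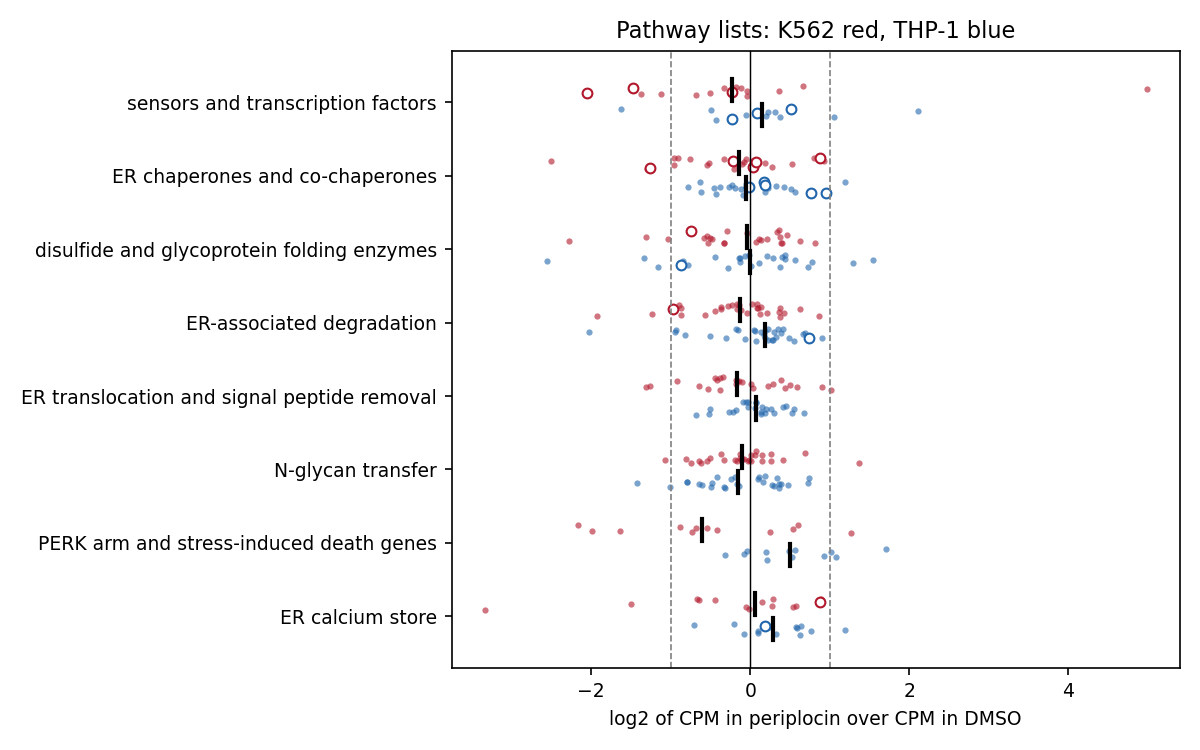
Log2 ratio of periplocin to DMSO for each measured gene of the 8 pathway lists, in K562 (red) and THP-1 (blue); open circles are genes among the 10 described here, black bars are list medians, dashed lines mark a 2-fold difference, and the vertical scatter within a list has no meaning. Medians of the PERK arm list are -0.61 in K562 and 0.50 in THP-1.

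Genes with these elements went in both directions. Of 25 genes with an exact ERSE, 15 averaged 1 CPM or more in both lines, and their median log2 ratio was -0.06 in K562 and -0.12 in THP-1. In K562, 2 of the 15 were at least 2-fold lower, HSPA5 and XBP1, and 1 was higher, TMEM120A at 1.10. Over all genes in K562, 11.4% were 2-fold lower and 8.94% higher, so these counts are near the background. In THP-1, 1 of the 15 was at least 2-fold higher, ERO1B, and 0 were lower, against 7.91% and 10.8% of all genes. Ratios below 0 were found for 8 of the 15 in K562 and 9 in THP-1. Genes with the element included CALR, at 0.88 in K562 and 0.18 in THP-1, and ERO1B, at 0.82 and 1.29. They also included CRELD2, an ER luminal protein, at -0.54 and -0.62, and PDIA6, a disulfide isomerase, at -0.53 and -0.14. ERSE-II was in 19 genes, 12 of them measured in both lines, with medians of 0.29 and -0.31. Of the 12, 1 was at least 2-fold higher in K562, ZNF143 at 1.51, and 1 lower, NAV2 at -3.60. In THP-1, 0 were 2-fold higher or lower. HERPUD1 was at -0.96 and 0.73, while HYOU1 and SDF2L1, ER chaperones with the same element, were at -0.75 and -0.61 and at -0.91 and -0.43. This listing was drawn up after the ratios were known and is a description.

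The genes whose pattern over the 4 libraries was nearest to that of HSPA5 were DBNDD2, CEBPB, GLCE, TMX4 and UNC119B, at Euclidean distances of 0.139 to 0.229 between centred log2(CPM + 0.5) values, among 9782 genes that averaged 10 CPM or more over the 4 libraries. CEBPB, a transcription factor, had 87.2 CPM with DMSO and 31.7 CPM with periplocin in K562, and 25.7 and 30.9 CPM in THP-1. TMX4 is itself an ER disulfide enzyme, with 106 and 42.9 CPM in K562 and 36.0 and 33.0 CPM in THP-1. Nearest to ERN1 were C11orf24, TRIB3, IGFBP4, GAB2 and TES, at distances of 0.126 to 0.22. The first of these had 93.6 and 23.1 CPM in K562 and 20.6 and 19.8 CPM in THP-1. With 4 libraries many genes can follow such a pattern, in which untreated K562 stands alone, and likeness over them says nothing of shared control.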

How the data were processed

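RNA-seq of K562 and THP-1 cells in DMSO or 100 nM periplocin was used, 1 library per condition. The authors deposited one table of expected counts per Ensembl gene, not normalized. The submitters' processing notes name hg38, HISAT2 and StringTie 1.3.1, and their roles are not given in the sources used here. The labels name a NovaSeq instrument and the study's methods another platform. From 87.3% to 88.3% of the expected counts were whole, and all were rounded. Symbols were found for 20310 of 20348 genes, and exon positions came from GENCODE 29.

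CPM used library totals. Ratios carry 95% exact conditional binomial intervals, and 3 counts served as the floor. Differences between lines used a normal interval on the log scale. A difference of at least 2-fold was counted among genes averaging 1 CPM or more over the pair. The 4 libraries were fitted by edgeR 4.0.16 (TMM, at least 10 counts in at least 2 libraries) with Benjamini-Hochberg adjustment, and by DESeq2 1.42.0 as the alternative, whose 1844 genes without an adjusted p were not counted. Genes named outside the 10 were those of each list at least 2-fold changed at a mean of 5 CPM or more, up to 3 per direction and line, with EIF2AK3, ATF4 and DDIT3 by name, and the 5 nearest to HSPA5 and to ERN1. Exceptions are marked where they stand. The genes and lists were chosen with earlier results of these data known.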

Additional observations from a re-analysis of the deposited data

Results flagged for a closer look

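4 of the 10 genes went in opposite directions in the lines beyond counting error, lower with periplocin in K562 and higher in THP-1. The same held for 9.85% of the 10780 genes measured in both lines. The THP-1 log2 ratio minus the K562 one was 1.44 for HSPA5, 0.98 for DNAJB9, 1.70 for HERPUD1 and 0.73 for ATF6. With 1 library per condition the difference was not tested against replicates, and its interval covers counting error only.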

How the results depend on the processing

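Each condition was 1 library, so leaving one out could not be done, and counting error is the least error these ratios can have. The fit over both lines pairs the treated and untreated library of each line. With a 1.5-fold in place of a 2-fold difference, 6 of the 10 genes passed in K562, against 3, and 4 passed in THP-1, against 0, where 41.1% and 38.4% of all genes passed at 1.5-fold. Over both lines, DESeq2 called 126 genes and edgeR without the filter on low counts called 2, against 0. With a minimum of 10 CPM, the further pathway genes at least 2-fold higher in K562 numbered 2, against 4, and those lower in THP-1 numbered 4, against 7, since fewer genes were counted. Without mitochondrially encoded genes 4 of the 10 were 2-fold lower in K562, HERPUD1 being added. Within a line, each other scaling moved every gene by the same amount, about 0.05 on the log2 scale at most. The count that follows therefore mostly reflects how wide the intervals are. Over single genes, 95 of 100 ratios under the other settings moved by less than their counting interval. The other 5 were shifts of at most 0.05 on the log2 scale in HSPA5, HSP90B1 and CALR, and of all these only HSP90B1 changed sign, to -0.02 in K562 without mitochondrially encoded genes and to 0.02 in THP-1 with DESeq2's size factors. Scarcer genes are limited by depth, as for DNAJB9 in THP-1 with 217 and 316 counts.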
